A study of Bos taurus with 8 samples.

Results

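Satellite cells (SCs), the muscle stem cells, were compared between calves and adults after the first 72 h of culture, termed passage 0. The cells were those of the passage 0 library that carried the authors' SC label, 2282 of 9591 cells at passage 0 and of 36129 cells in the whole series. Of these, 990 SCs came from 5 calves (donors 2, 4, 5, 7 and 10) and 1292 from 4 adults (donors 1, 6, 8 and 9). All donors were Belgian Blue cattle, and cells were released from the semitendinosus muscle with collagenase. Each donor was plated apart on fibronectin in serum-free growth medium, and the unsorted cells of all donors were then pooled into 1 droplet library, in which genotypes gave each cell its donor. Donor 10 was the only male calf, whereas donors 6 and 8 were male adults and donors 1 and 9 female adults. The age of an animal was given as calf or adult alone. UMIs (unique molecular identifiers, which count RNA molecules) were summed over the SCs of each donor, so that the donor was the replicate, and levels are in CPM, the share of a donor's summed UMIs scaled to a common total, with TMM scaling between donors for single genes.

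SCs lie quiescent between the muscle fibre and its basal lamina and carry the transcription factor PAX7. After injury or isolation they enter the cell cycle with the myogenic factors MYF5 and MYOD1, and MYOG marks those that leave it to differentiate. In young animals SCs add nuclei to growing fibres, and in grown animals most of them rest until the muscle is damaged.

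The SC label was checked against markers of SCs and of fibro-adipogenic progenitors (FAPs), the mesenchymal cells that made up most of the culture. Pooled over donors, MYF5 was at 63.8 CPM in SCs and 2.94 CPM in FAPs, PAX7 at 3.69 and 0.103 CPM, and the integrin subunit ITGA7 at 53.03 and 5.40 CPM. The transcription factor MSC (26.2 CPM in SCs, 28.6 CPM in FAPs) and the proteoglycan SDC4 (122 and 135 CPM) did not set SCs apart, and CHRDL2 was nearly absent at 0.0461 CPM. PDGFRA, the surface receptor of FAPs, was at 61.4 CPM in SCs and 282 CPM in FAPs, and the matrix proteoglycan DCN at 1139 and 2867 CPM. The leucocyte gene PTPRC and the glial gene SOX10 had no UMI in SCs, but other markers of those cell types were present. The glial marker S100B was at 42.2 CPM in SCs and 14.8 CPM in FAPs, and the monocyte marker CD14 at 9.59 and 17.2 CPM. Summed FAP markers ranged from 1859 to 2952 CPM in SCs of calves and from 2410 to 2729 CPM in SCs of adults, against 4599 to 8264 CPM in FAPs of all donors. In 88.8% to 99.3% of the SCs of each donor, UMIs of FAP markers outnumbered those of SC markers. The FAP markers included matrix genes abundant in both cell types, such as COL3A1 (966 CPM in SCs, 1407 CPM in FAPs) and LUM (270 and 355 CPM). SCs were termed high in PDGFRA where its UMIs outnumbered those of MYF5, ITGA7, NCAM1 and DES together. Without the SCs high in PDGFRA edgeR called 0 of 9634 genes (0%) between calves and adults, with 1165 genes (12.1%) at an unadjusted p below 0.05. Any further part of FAP markers in the results was not tested. The summed SC UMIs ranged from 920291 in donor 2, which gave 45 SCs, to 9630375 in donor 6, which gave 469. Of the SC barcodes, 20 also occurred in another library.

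SCs made up a smaller mean share of the culture in calves than in adults. They were 5.75% of the cells of donor 2, 15.97% of donor 4, 16.3% of donor 5, 29.8% of donor 7 and 18.9% of donor 10, against 27.3% of donor 1, 36.9% of donor 6, 25.2% of donor 8 and 33.7% of donor 9. Only calf donor 7 lay within the range of the adults. The mean was 17.4% ± 8.60 in calves (SD, n = 5) and 30.8% ± 5.46 in adults (SD, n = 4), with an exact 2-sided permutation p of 0.0397 and an adjusted p of 0.229 over the 16 measures tested, so the difference did not pass the correction. The smallest p this design allows is 0.0159.

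Cell cycle phases, taken from the authors' calls, overlapped between calves and adults. SCs in G1 were 48.9% in donor 2, 14.2% in donor 4, 24.5% in donor 5, 22.1% in donor 7 and 38.3% in donor 10 among the calves. Among the adults they were 44.1% in donor 1, 23.9% in donor 6, 53.5% in donor 8 and 46.3% in donor 9. Adult donors 1, 6 and 9 thus lay within the range of the calves, and donor 8 above it. The exact permutation test gave p = 0.214 for G1 (adjusted p = 0.490), 0.310 for S (adjusted p = 0.550) and 0.0714 for G2/M, whose shares were 32.0% ± 2.50 in calves (n = 5) and 27.2% ± 4.03 in adults (n = 4; adjusted p = 0.229). With each cell thinned to 5000 UMIs, the proliferation markers MKI67 and TOP2A were seen in 45.5% ± 7.69 and 46.02% ± 6.99 of SCs in calves and in 37.9% ± 4.24 and 40.6% ± 4.56 in adults (mean ± SD of donors), with no test. Unthinned, the shares were 65.1% and 66.3% in calves and 55.1% and 57.7% in adults. The median SC carried 19871 ± 2008 UMIs in calves (mean of donor medians, n = 5) and 16673 ± 2174 in adults (n = 4; exact permutation p = 0.0635, adjusted p = 0.229), and the part of depth in the phase calls was not tested.

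SCs with MYOG were few at either age. A MYOG UMI was seen in 7 of 163 SCs of calf donor 5, or 4.29% (exact 95% interval 1.74% to 8.65%, for counting error only), and in 0% to 1.18% of the SCs of the other calves and 0.340% to 0.426% of those of the adults. The 0 of 45 SCs of donor 2 allow a share of SCs with a MYOG UMI of up to 6.67% by a limit of 3 counts, or 7.87% by the exact 95% interval, which does not limit the share of SCs that express the gene. In FAPs, which should lack the gene, the shares were 0% to 0.904%, and donor 5 and donor 7 alone lay above that range. The exact 95% interval of donor 7, 0.322% to 2.99%, reached into it. The median UMI count was 18203 in SCs and 24188 in FAPs. Donor 5 also had the largest share of SCs with a MYOD1 UMI, 18.4%, against 0.340% to 8.03% in the other donors. With each cell thinned to 5000 UMIs, MYOG was seen in 3.27% of the SCs of donor 5, with 32 SCs of calves and 40 of adults under that depth left out. So thinned, the share was 0.304% in SCs of donor 7, within the 0% to 0.451% of FAPs.

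**Figure D1:**
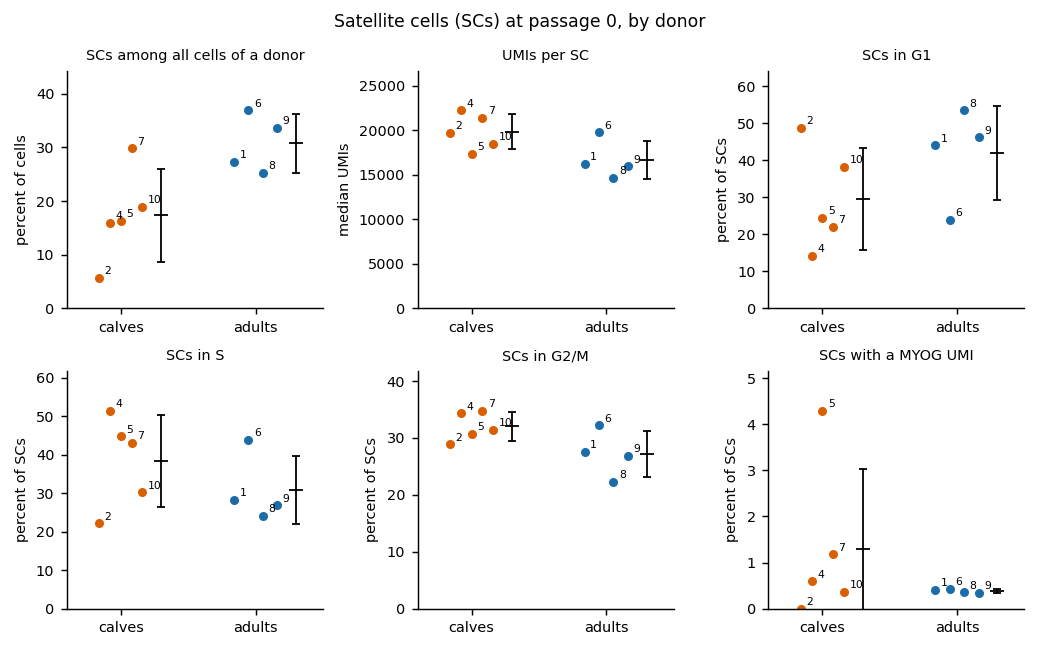
SC measures of each donor at passage 0: share of SCs among all cells (percent), median UMIs per SC, shares of SCs in G1, S and G2/M (percent) and share of SCs with a MYOG UMI (percent). Points are donors with their number, and bars give the mean ± SD of 5 calves and 4 adults (cut at 0). All 4 adults lie within the range of the calves for S, donors 1, 6 and 9 for G1 and donor 6 for G2/M, and calf donor 5 stands alone for MYOG at 4.29%.

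In principal components of the most variable of the tested genes, the donors did not separate cleanly by age. The first principal component held 37.8% of the variance and set calf donor 2, the donor with fewest SCs, at -34.8 apart from the others at -0.320 to 10.5. The second held 22.9% and placed adult donors 1, 8 and 9 at -15.4, -8.28 and -13.3, with adult donor 6 at 2.39 inside the range of the calves, from 1.55 to 17.7.

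**Figure D2:**
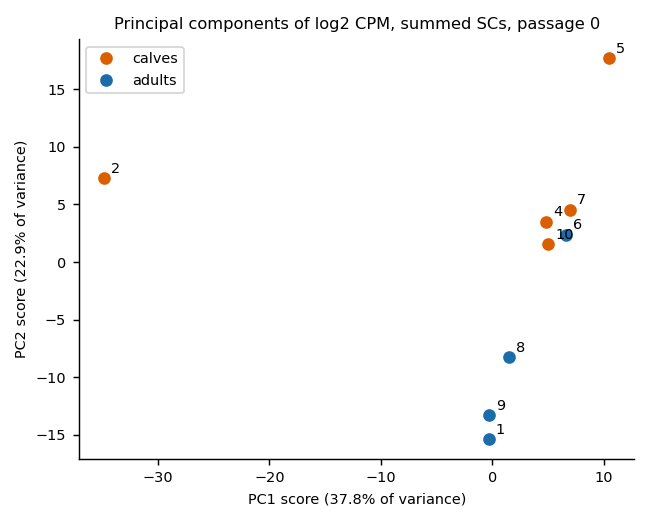
First and second principal components of log2 CPM of the most variable tested genes in the summed SCs at passage 0. Each donor is 1 point with its number. Donor 2 lies apart on the first component, and on the second adult donor 6 (2.39) lies with the calves (1.55 to 17.7).

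No gene was called different between SCs of calves and adults. With edgeR's quasi-likelihood test, 0 of 9908 genes (0%) reached an adjusted p below 0.05 with an absolute log2 fold change (log2FC, calf minus adult) above 1, and the smallest adjusted p was 0.359. At an unadjusted p below 0.05 there were 1018 genes (10.3%), 426 higher in calves (4.3%) and 592 lower (5.97%). The donor values of calves and adults did not overlap for 253 genes (2.55%), 129 of them higher in calves (1.3%) and 124 lower (1.25%). DESeq2 called 6 genes (0.0606%), 4 higher in calves (0.0404%) and 2 lower (0.0202%), and had 843 genes at an unadjusted p below 0.05 (8.51%). Without adult donor 6, edgeR called 40 of 10010 genes (0.4%), 9 higher (0.0899%) and 31 lower (0.31%) in calves, and leaving out any other donor gave 0 calls. In the female donors alone, 4 calves and 2 adults, 24 of 9981 genes (0.24%) were called, 5 higher (0.0501%) and 19 lower (0.19%) in calves. Of these, 11 were among the 40, and as both fits left out donor 6 and shared the female donors, this overlap is no separate result.

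As the rule for naming genes required a call, the genes below were chosen after their values were seen, and their values are a description. They are 11 genes (0.111%) with an unadjusted p below 0.05, an absolute log2FC above 1 and donor values that did not overlap, the 6 genes called by DESeq2 and the 12 genes with the smallest p. None of the first group passed edgeR's correction, with adjusted p-values from 0.359 to 0.463. List members named further below were not called either and were also chosen after their values were seen.

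UCHL1, CHRNA1 and TUBB3 had a higher CPM in SCs of every calf than of any adult. For CHRNA1 and TUBB3 calf donor 2 was above the highest adult by less than 1 UMI, which was 1.10 CPM in that donor. UCHL1, a deubiquitinase abundant in neurons, was at 145, 164, 105, 142 and 88.9 CPM in calf donors 2, 4, 5, 7 and 10, and at 42.0, 69.4, 54.8 and 32.4 CPM in adult donors 1, 6, 8 and 9. Every calf lay above every adult, the log2FC was 1.35 ± 0.25 (SE), and DESeq2 gave an adjusted p of 1.0e-05. CHRNA1, the alpha subunit of the muscle acetylcholine receptor, was at 6.61, 12.4, 20.9, 7.18 and 12.3 CPM in the same calves and at 2.67, 3.76, 6.38 and 2.52 CPM in the adults (log2FC 1.65 ± 0.36). The gap between the lowest calf, donor 2 with 6 UMIs, and the highest adult, donor 8, was small. The neuronal tubulin TUBB3 was at 3.30 to 7.31 CPM in calves, highest in donor 5, and at 0.729 to 2.24 CPM in adults (log2FC 1.49 ± 0.36). The lowest calf, donor 2, had 3 UMIs of TUBB3.

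DES, the intermediate filament protein desmin of the muscle lineage, was at 47.4, 66.1, 156, 30.5 and 40.4 CPM in calf donors 2, 4, 5, 7 and 10 and at 18.2, 30.2, 19.8 and 14.9 CPM in adult donors 1, 6, 8 and 9. Donor 5, which had the most MYOG and MYOD1, was far above the rest, and calf donor 7 and adult donor 6 were nearly level. The log2FC was 1.66 ± 0.54 (edgeR unadjusted p = 0.0154, adjusted p = 0.421), and 1.09 to 1.94 without each donor in turn. It was the sole marker of the 9 tested SC markers with an unadjusted p below 0.05: PAX7 was at 2.20 to 5.57 CPM in calves and 3.35 to 3.96 CPM in adults, and MYF5 at 19.8 to 97.9 CPM and 45.2 to 73.3 CPM. Both ranges overlapped.

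PTN, the heparin-binding growth factor pleiotrophin, was at 8.81, 28.6, 44.2, 36.5 and 14.2 CPM in calf donors 2, 4, 5, 7 and 10 and at 5.83, 6.30, 8.14 and 8.20 CPM in adult donors 1, 6, 8 and 9. The adults lay close together and the calves spread widely, with donor 2 (8 UMIs) above the adults by less than 1 UMI. The log2FC was 1.98 ± 0.40, with an adjusted p of 0.359 in edgeR and 1.9e-04 in DESeq2. WFDC18, a whey acidic protein family member, had the largest log2FC of these genes, 4.57 ± 1.80, but it rested on calf donor 2 at 182 CPM and donor 4 at 23.5 CPM; the remaining calves were at 2.17 to 6.42 CPM and the adults at 0.729 to 1.63 CPM. RIN3, a guanine nucleotide exchange factor of endocytosis, was at 2.91 to 3.96 CPM in calves (3 UMIs in donor 2, where 1 UMI was 1.10 CPM) and 0.243 to 2.20 CPM in adults, and the fibrillar collagen gene COL27A1 at 2.12 to 5.51 and 0.729 to 1.22 CPM.

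AOX1, an aldehyde oxidase, was the gene of this group with the largest negative log2FC, -1.56 ± 0.42. It was at 26.4, 10.1, 34.1, 24.4 and 51.3 CPM in calf donors 2, 4, 5, 7 and 10 and at 80.0, 54.6, 104 and 114 CPM in adult donors 1, 6, 8 and 9. COL8A1, a short-chain collagen, was at 2.20 to 8.73 CPM in calves and 8.74 to 29.0 CPM in adults (log2FC -1.54 ± 0.44), so that donors 4, 6 and 8 were level. SGMS2, a sphingomyelin synthase, was at 2.20 to 3.21 CPM in calves and 3.86 to 10.3 CPM in adults (log2FC -1.31 ± 0.30). Calf donor 2 had 2 UMIs each of COL8A1 and SGMS2.

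Among the genes called by DESeq2, GPNMB, LCAT and FBLN2 had donor values that overlapped at adult donor 6. GPNMB, a lysosomal glycoprotein, was at 3.30 to 12.6 CPM in calves, at 43.5, 57.4 and 34.3 CPM in adult donors 1, 8 and 9, and at 7.83 CPM in donor 6. LCAT, which esterifies cholesterol, was at 19.3 to 34.1 CPM in calves, 57.4, 55.0 and 73.4 CPM in those adults and 25.6 CPM in donor 6. The matrix protein gene FBLN2 was at 22.5 to 59.9 CPM in calves and 10.5 to 25.3 CPM in adults, donor 6 being the highest adult and above calf donor 4. In edgeR without donor 6 the log2FC was -2.55 for GPNMB (adjusted p = 0.0115) and -1.31 for LCAT (adjusted p = 0.0113), while FBLN2 was at 1.57 (adjusted p = 0.0530). APOE, which carries lipids, was one of the 40 genes called without donor 6 (log2FC -1.85, adjusted p = 0.0113). It was at 14.1 to 29.7 CPM in calves and 16.3 CPM in donor 6, but at 66.3, 60.5 and 70.5 CPM in donors 1, 8 and 9. As the 40 genes were called once donor 6 was left out, the place of donor 6 among the calves in these genes is no separate result. Donor 6 was a male adult, as was donor 8.

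**Figure D3:**
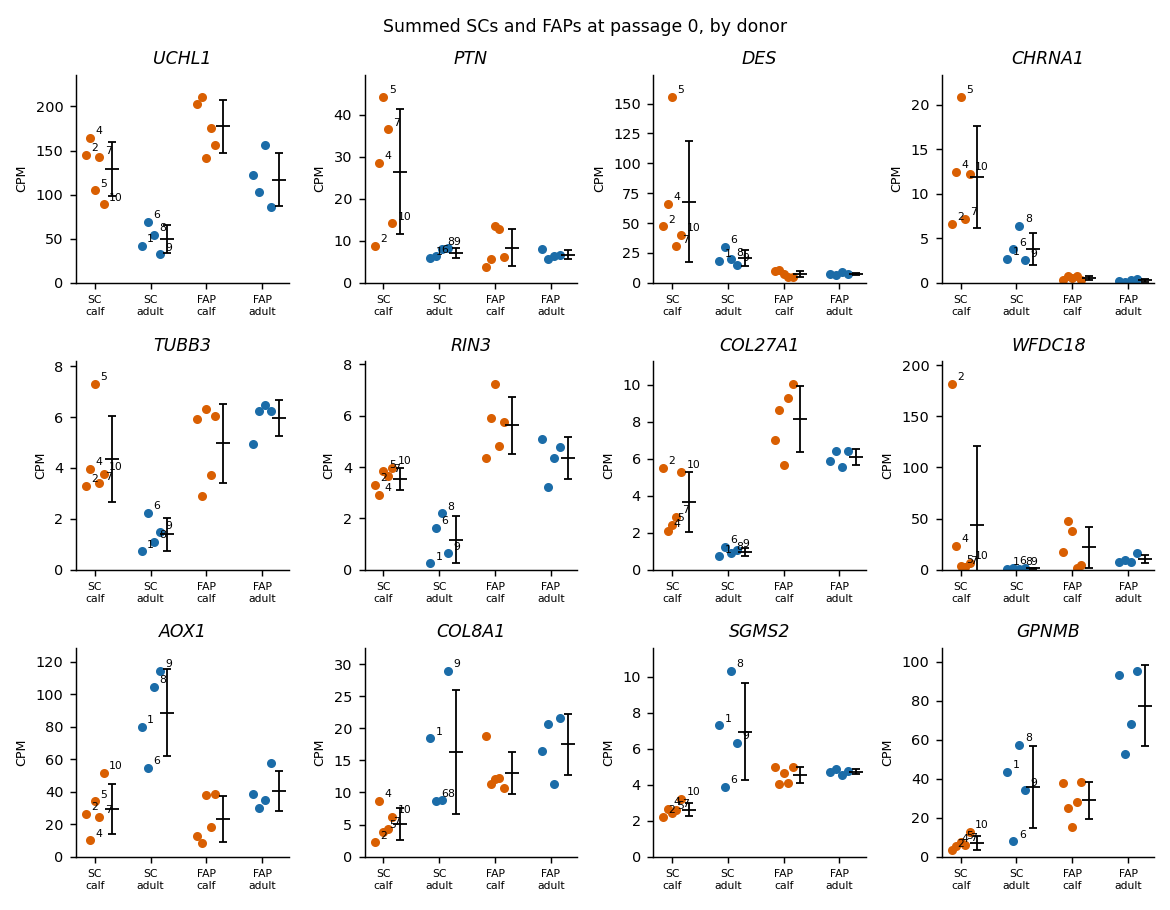
CPM of the 11 genes without overlap and of GPNMB in summed SCs and FAPs at passage 0. Points are donors (numbered for SCs), and bars give the mean ± SD (cut at 0) of 5 calves and 4 adults. UCHL1 separates the ages in SCs (88.9 to 164 against 32.4 to 69.4 CPM), and WFDC18 rests on donor 2 at 182 CPM.

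Of the 12 genes with the smallest p, UCHL1 and COL27A1 were given above and the others had log2FCs below 1 in size. PRDX6, a peroxidase that reduces phospholipid peroxides, was at 522 to 671 CPM in calves and 734 to 1089.8 CPM in adults (log2FC -0.57 ± 0.11). HIF1A, the transcription factor of the hypoxia response, was at 183 to 218 and 237 to 292 CPM, and SPRY2, an inhibitor of growth factor receptor signalling, at 27.2 to 36.2 and 43.1 to 49.1 CPM. ST3GAL4, a sialyltransferase, was at 44.1 to 51.3 CPM in calves and 30.1 to 36.6 CPM in adults (log2FC 0.54 ± 0.10), and VGLL2, a cofactor of TEAD transcription factors in muscle, at 16.6 to 28.8 and 8.99 to 13.8 CPM (log2FC 0.93 ± 0.20). Calves and adults did not overlap in any of the genes PRDX6, HIF1A, SPRY2, ST3GAL4 and VGLL2. HDDC2 was at 105 to 117 and 79.2 to 89.3 CPM, STXBP2 at 16.7 to 22.03 and 23.4 to 30.1 CPM and APOBEC3H, a cytidine deaminase, at 9.91 to 13.9 and 16.4 to 26.01 CPM, also without overlap. NDRG1, which hypoxia induces, overlapped, at 27.1 to 48.5 CPM in calves, highest in donor 2, and at 45.7 CPM in donor 6 and 60.5 to 65.4 CPM in the other adults (log2FC -0.74 ± 0.14). CD302, a C-type lectin, overlapped as well, at 37.03 to 52.6 and 51.9 to 66.4 CPM. The edgeR adjusted p of all 12 genes was 0.359.

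Gene lists were described by counts and medians, beside a median log2FC of all tested genes of -0.0008 with 49.8% of genes higher in calves. The members of a list were read in the same 9 donors, so a count of members is no count of replicates. No list member was called, and 22 of the 32 lists had a median below 0. The largest median, 0.50, was that of 8 myogenic commitment and fibre genes, the only ones of 39 that were tested, and it ranged from -0.0055 to 0.55 without 1 donor. Of these 8, 5 had a log2FC above 0 and 3 below, and 2 (25%) had an unadjusted p below 0.05 in edgeR. The median fell between TPM2 (0.07) and KLHL41 (0.93), with no member between them. The mean log2 CPM of this list was 4.67 in calf donor 2, within the range of the adults (4.64 to 4.70), and was highest in calf donor 5 (5.69). Genes of DNA replication and S phase had a median log2FC of 0.21, with a log2FC above 0 in 41 of 42. Of these, 4 (9.52%) had an unadjusted p below 0.05, beside 10.3% of all genes. Among them were MCM5 of the replicative helicase (0.35 ± 0.15) and GINS2 (0.40 ± 0.17). The mean log2 CPM of the S phase list was 5.04 to 5.72 in calf donors and 5.18 to 5.58 in adult donors, so all adults lay within the range of the calves. Of the mitotic genes 43 of 54 had a log2FC above 0, with a median of 0.14 and 9 (16.7%) with an unadjusted p below 0.05, such as CENPA (0.32 ± 0.11). The mean log2 CPM of the mitotic list overlapped too, at 5.71 to 6.08 in calf donors and 5.69 to 5.98 in adult donors. Without donor 6 the medians were 0.32 and 0.22, and as given above the share of SCs in G1 was 23.9% in donor 6 and 44.1% to 53.5% in the other adults. The phase shares and these medians come from the RNA of the same cells, so they are no separate results. The part of the cell cycle phase in these values was not tested. In FAPs the medians of the S phase and mitotic lists were 0.04 and 0.04.

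Genes of nuclear encoded oxidative phosphorylation (log2FC above 0 in 70 of 77 and below 0 in 7, median 0.10) and of cytosolic ribosomal proteins (above 0 in 69 of 82 and below 0 in 13, median 0.05) had small values. At an unadjusted p below 0.05 there were 15 (19.5%) and 12 (14.6%), each with a log2FC above 0. All tested genes gave 4.3% higher and 5.97% lower in calves at that p, and 49.8% with a log2FC above 0. The ribosomal median was 0.02 without calf donor 5. NDUFA11 of respiratory complex I was at 199 to 237 CPM in calves and 171 to 188 CPM in adults (log2FC 0.26 ± 0.07). The 13 mitochondrially encoded genes had a median of -0.02, which was 0.0036 without calf donor 2, and 4 had a log2FC above 0.

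Genes of redox defence had a median of -0.26 over 37 genes, with 3 higher and 9 lower in calves at an unadjusted p below 0.05 (32.4% in all, against 10.3% of all genes). The lower ones were PRDX6, the iron exporter SLC40A1, FTL (ferritin light chain), GCLC, which makes glutathione, NFE2L2 (the regulator NRF2), NQO1, CAT (catalase), GPX3 and GSTP1. FTL was at 2722 to 3853 CPM in calves, at 4564, 4998 and 5146 CPM in adult donors 1, 8 and 9, and at 3110.4 CPM in donor 6. The higher ones were PRDX2 (log2FC 0.21 ± 0.07), GPX8 (0.37 ± 0.10) and GPX4 (0.14 ± 0.05). The median was -0.41 without donor 6 and -0.14 in FAPs.

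Among signalling and surface genes the median was -0.30 for chemokines and cytokines (1 higher and 5 lower of 23), -0.30 for the Wnt pathway (0 and 1 of 20), -0.25 for integrins and syndecans (0 and 5 of 20) and -0.16 for TGF-beta, activin, BMP and myostatin (0 and 5 of 28), all counted at an unadjusted p below 0.05, where all genes gave 4.3% higher and 5.97% lower. The 1 gene of the Wnt list (5%) was thus near that share. Without 1 donor the TGF-beta median ranged from -0.24 (without donor 1) to -0.09 (without donor 9), and that of chemokines from -0.43 (without donor 10) to -0.19 (without donor 9). GREM1, a secreted BMP antagonist, was at 5.51 to 12.7 CPM in calves, 35.2, 20.9 and 39.5 CPM in adult donors 1, 8 and 9 and 9.35 CPM in donor 6. TGFBR2, a TGF-beta receptor, was at 17.9 to 23.1 and 23.7 to 29.7 CPM without overlap. The highest calf, donor 2 with 21 UMIs of TGFBR2, was below the lowest adult by less than 1 UMI (1.10 CPM in that donor). The FGF, HGF, EGF and PDGF list had a median of -0.13 (-0.04 without donor 9), with a log2FC below 0 in 18 of 29 and 2 genes in each direction at an unadjusted p below 0.05. The lower ones were SPRY2 and the receptor EGFR, at 3.70 to 5.85 CPM in calves and 5.83 to 10.3 CPM in adults. The higher ones were FGF7, at 14.3 to 85.3 against 8.51 to 20.01 CPM, and the receptor FGFR4, at 6.61 to 24.4 against 2.10 to 8.74 CPM (adjusted p = 0.464 and 0.421 in edgeR). Of these 4, only SPRY2 did not overlap. The list of the IGF axis and juvenile growth genes, many of them imprinted, had a median of 0.07 (-0.04 without donor 4 or 7) over 21 genes, with 3 higher and 1 lower in calves at an unadjusted p below 0.05 (19%). The lower one was IGFBP6, an IGF binding protein, at 147 to 204 CPM in calves and 192 to 456 CPM in adults. The higher ones were MEST (log2FC 0.51 ± 0.16), PEG10, at 54.5 to 89.2 against 28.4 to 53 CPM, and CDKN1C. Of the other imprinted genes, IGF2, IGF2R, GRB10, NDN and SGCE had log2FCs from -0.23 (GRB10) to -0.10 (IGF2), and PEG3, PLAGL1 and NNAT from 0.14 (PLAGL1) to 0.18 (NNAT). CDKN1C, a cell cycle inhibitor, was at 8.81 to 64.4 CPM in calves and 4.62 to 19.6 CPM in adults (log2FC 1.43 ± 0.55), highest in donor 5. SMMC markers (of smooth muscle and mesenchymal cells), summed and led by ACTA2, were at 76.9 to 111 CPM in calves, 102 CPM in donor 6 and 28.1 to 57.9 CPM in the other adults (exact permutation p = 0.0556, adjusted p = 0.229). Monocyte and macrophage markers, summed, were at 9.78 to 13.1 CPM in calves and 12.2 to 20.2 CPM in adults (mean 11.5 ± 1.27 and 14.8 ± 3.69, exact permutation p = 0.0476, adjusted p = 0.229). Most of the sum was CD14, at 9.59 CPM pooled over SCs and 17.2 CPM in FAPs, while PTPRC had no UMI in SCs. Of the 2 markers tested as single genes, CD14 was lower in calves (log2FC -0.63) and CD68 higher (0.59). The part of these markers in the chemokine and other lists was not tested.

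**Figure D4:**
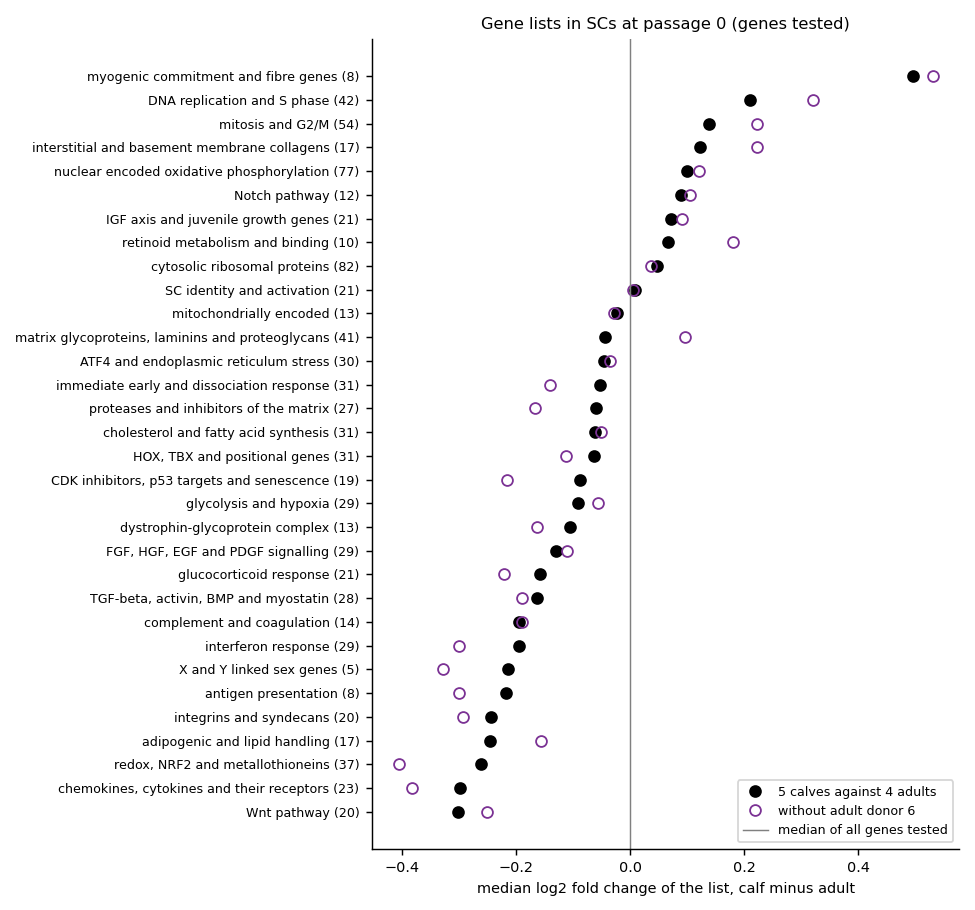
Median log2FC (calf minus adult) of each gene list in SCs at passage 0, with the number of genes tested in brackets. Filled points use 5 calves and 4 adults, open points leave out adult donor 6, and the line is the median of all genes, -0.0008. Myogenic commitment genes (8 tested of 39) lie highest, at 0.50, and Wnt genes lowest, at -0.30. S phase genes lie at 0.21 and redox genes at -0.26.

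Whether the age difference of a gene was the same in SCs and FAPs was tested in 1 model with the donor as a block. PTN alone of 11456 genes (0.00873%) was called (1212 genes, 10.6%, at an unadjusted p below 0.05), with a difference of the 2 log2FCs of 1.52 (95% interval 1.07 to 1.97, adjusted p = 0.0287). In FAPs PTN was at 3.70 to 13.5 CPM in calves and 5.60 to 8.12 CPM in adults, and overlapped. Without the donor block the adjusted p was 0.927 and no gene was called, and with thinned sums that of PTN was 0.539 and CTSF was called in its place. Leaving out donor 1, 5, 7, 8 or 9 also ended the call of PTN, with adjusted p-values from 0.0521 to 0.204, although the difference stayed at 1.36 to 1.63 without each donor in turn, while without donor 6 there were 22 calls, PTN among them. FAPs alone gave 0 of 11466 calls (0%) in edgeR and 575 genes at an unadjusted p below 0.05 (5.01%).

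In muscle, before culture, SCs of 5 calves and 5 adults (donor 3 included) gave 4 calls of 4155 genes (0.0963%; 355 genes, 8.54%, at an unadjusted p below 0.05), from 26 to 98 SCs per donor. HPCAL1, a neuronal calcium sensor, was at 21.8 to 36.3 CPM in calves and 120 to 154 CPM in adults (log2FC -2.36, edgeR adjusted p = 2.5e-05), and SEPTIN4, a filament-forming GTPase, was lower in calves too (log2FC -1.04, adjusted p = 0.0174). SMIM11A (1.51, adjusted p = 0.0104) and the matrix protein gene VWA1 (1.68, adjusted p = 0.0174) were higher in calves. At passage 0 HPCAL1 was at 27.5 to 81.5 CPM in calves and 39.8 to 53.9 CPM in adults, with a log2FC of -0.25 ± 0.26, and the donor values of all 4 genes overlapped. HPCAL1 was called without each donor in turn, whereas without donor 2, 5 or 8 it was the single call. Muscle and passage 0 were separate libraries, so the stage and the library cannot be told apart, and the difference between stages was not tested.

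At passage 2 the donors had been grown unsorted (1, 2 and 9), sorted as SCs (5, 6 and 10) or sorted as FAPs (4, 7 and 8), and gave 18 to 1125 SCs each. Of the 11 genes without overlap at passage 0, AOX1 again did not overlap in the same direction, and RIN3 did so only as far as it could be measured. Of all 9908 genes, 426 (4.3%) did not overlap at passage 2, 216 with higher calves (2.18%) and 210 with lower calves (2.12%), and 20 (0.202%) did so in the same direction at both passages. AOX1 was at 2.92 to 37.9 CPM in calves and 53.1 to 185 CPM in adults, whereas in muscle its donor values overlapped. RIN3 was at 2.22 to 3.38 CPM in calves and 0.851 to 1.28 CPM in adult donors 1, 6 and 9. Donor 8, with 18 SCs, had no RIN3 UMI, and as a count of 0 allows up to 8.79 CPM there (3 UMIs), it cannot be placed below the calves. Without donor 8, 611 of 9908 genes (6.17%) did not overlap at passage 2. PRDX6 was at 518 to 719 CPM in calves and 738 to 1119.8 CPM in adults. UCHL1 overlapped at passage 2, at 36.8 to 166 and 17.3 to 63.9 CPM, and PTN was at 410 to 782 and 138 to 681 CPM. As the same animals were used at each passage, these values are no independent replicates.

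**Figure D5:**
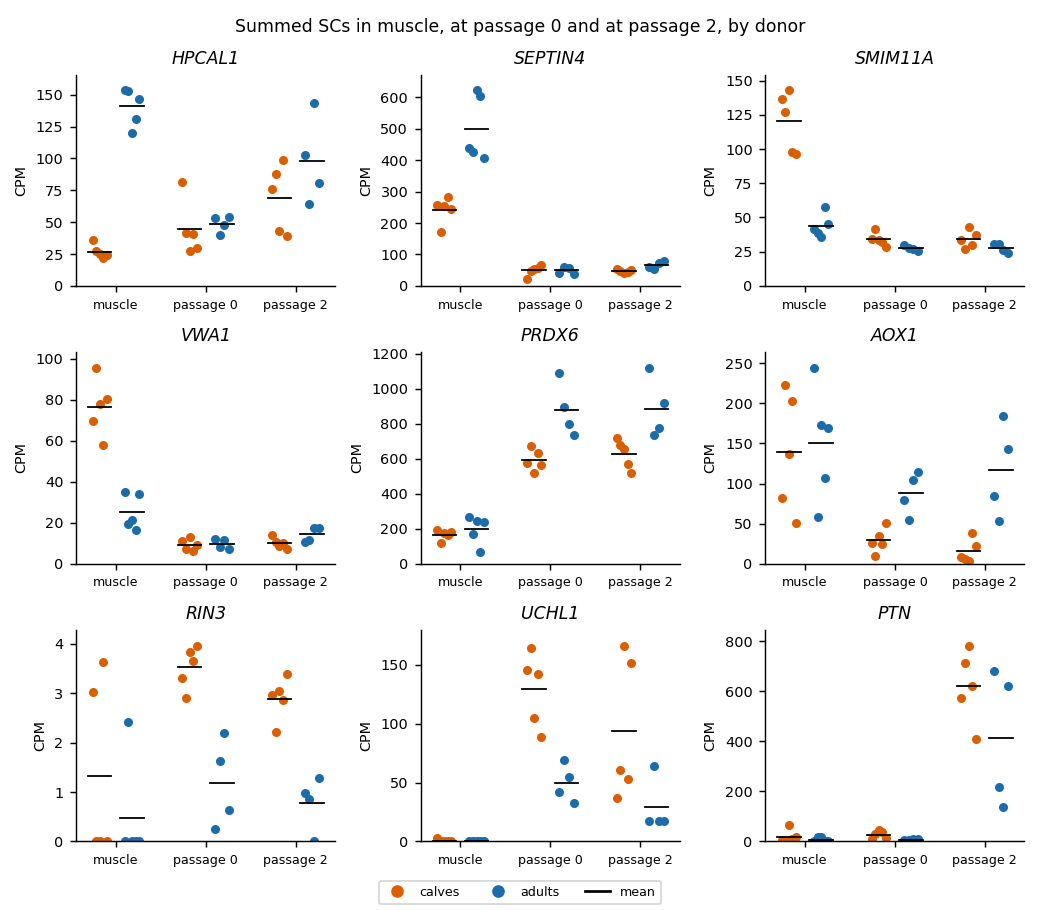
CPM in summed SCs of the 4 genes called in muscle and of PRDX6, AOX1, RIN3, UCHL1 and PTN, in muscle, at passage 0 and at passage 2. Points are donors and lines the means of calves and adults, a point at 0 had no UMI, and 1 UMI was 2.42 to 11.3 CPM in muscle. HPCAL1 separates the ages in muscle (21.8 to 36.3 against 120 to 154 CPM) and not at passage 0. AOX1 separates them at passages 0 and 2 and not in muscle.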

How the data were processed

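The authors counted UMIs per gene and barcode with Cell Ranger 6.0.1 on build ARS-UCD1.2 and assigned donors with demuxlet. The deposited matrices hold raw counts. The deposited cell tables give UMIs and genes per cell (counts), percent mitochondrial UMIs, the phase and the cell type label; 8 further columns of the combined cell table were not used. The combined expression table was not used. Of 22164 barcodes at passage 0, 39.4% were doublets per the authors' tables and were left out; doublets of 1 donor cannot be seen by genotype, and no other caller was run. The ages and sexes of donors came from the study's animal table. The members and gene lists were chosen with earlier results of these data known.

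Counts were summed per donor and compared with edgeR 4.0.16 in R 4.3.3 (quasi-likelihood F test, robust, TMM, filterByExpr) and Benjamini-Hochberg adjustment. Genes were called where the log2FC exceeded 1 in size and the adjusted p was under 0.05. The SE was the absolute log2FC over the square root of F. DESeq2 1.42.0 was an alternative. The 16 donor measures were compared by exact 2-sided permutation over 126 splits and adjusted together. The difference between SCs and FAPs was fitted with a donor block, since the labels tie both cell types to the same animals. Genes to be named were the 12 with the largest change in each direction among calls without overlap, called list members and markers. As no gene was called, the genes and list members named were chosen after their values were seen. The fits were tested on simulated data. Symbols came from the deposited gene table; 68 symbols stand for several genes. No coordinates or sequences are given.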

Additional observations from a re-analysis of the deposited data

Results flagged for a closer look

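In 104 groups of 4 or 5 donors, a gap test (Dixon, 95%) set 9 donor values apart from the rest of their age group. Chance sets apart about 1 in 20 groups of unselected, normally spread values. Many groups here were genes chosen by these same values, so the count cannot be set against that rate. Calf donor 5 stood apart in 5: the share of SCs with a MYOG UMI (4.29%), summed myocyte markers (11.1 CPM, against 0 to 0.823 CPM in the other calves), DES (156 CPM), TUBB3 (7.31 CPM) and MYOD1 (38.3 CPM, against 1.10 to 6.61 CPM). The myocyte sum of donor 5 was MYOG alone, with 33 UMIs and none of the other myocyte markers, so it is no separate signal from the MYOG share. Calf donor 2, with 45 SCs, stood apart for WFDC18 (182 CPM) and HPCAL1 (81.5 CPM). Adult donor 6 stood apart for the median number of genes per SC (4142, against 3549.5 to 3621 in the other adults) and for MYOD1 (4.88 CPM, against 0.631 to 1.10 CPM). The age difference of PTN differed between SCs and FAPs by 1.52 on the log2 scale (edgeR adjusted p = 0.0287), a call that ended without the donor block (adjusted p = 0.927), with thinned sums (0.539) and without donor 1, 5, 7, 8 or 9 (0.0521 to 0.204), while the difference was 1.36 to 1.63 without each donor in turn.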

How the results depend on the processing

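The count of 0 genes called at passage 0 was also found with RLE normalization, no low count filter, sex as a covariate, thinned sums, G1 cells, equal cells per donor, an adjusted p alone and without SCs high in PDGFRA; the last was chosen after seeing the data, because the planned removal of SCs with more FAP than SC marker UMIs left too few cells and was not run. DESeq2 gave 6 calls, female donors alone 24, and leaving out 1 donor 0 to 40. The causes were not tested. For SCs against FAPs the 1 call became 0 without the donor block, 2 without the filter and 0 to 22 without 1 donor, and thinned sums gave 1 call, of CTSF in place of PTN. In muscle the 4 calls became 37 without the filter, 7 with sex as a covariate and 1 to 7 without 1 donor. No donor measure passed the adjusted threshold under any alternative.

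Small values at passage 0 changed sign. With equal cells per donor the log2FC was 0.19 for HPCAL1, -0.24 for ITGA7, -0.24 for MYF5 and -0.073 for MSC. MSC was at -0.027 with sex as a covariate, -0.052 in females, -0.26 with thinned sums and -0.15 in G1 cells, VWA1 at 0.00019 with thinned sums and 0.046 in G1 cells, and NCAM1 at 0.12 with thinned sums. Without 1 donor the log2FC ranged from -0.31 to 0.026 for VWA1, -0.058 to 0.22 for SEPTIN4, -0.041 to 0.80 for CHODL, -0.045 to 0.054 for MSC and -0.0059 to 0.37 for MYF5. Differences of summed markers (calf minus adult) ranged from -218 to 55.3 CPM for FAPs, -4.15 to 1.09 CPM for vascular endothelial cells, -0.753 to 0.0016 CPM for lymphatic endothelial cells, -6.27 to 15.0 CPM for glia and -0.156 to 2.63 CPM for myocytes; in females they were 1.15 CPM for vascular and -16.6 CPM for glial markers. The median of the 8 myogenic commitment genes, 0.50, was 0.03 without donor 2 and -0.0055 without donor 7. Depth limits low genes most in donor 2, with 45 SCs.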
